A study of Mus musculus with 67 samples.

Results

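The genes examined here encode splicing factors and ribonucleoproteins of the mouse cerebral cortex. Members were taken by name, from probes with exactly 1 gene symbol that starts with Srsf, Hnrnp, Sf3, Snrp, Prpf, U2af, Lsm, Rbm followed by a digit or Ddx followed by a digit. This gave 72 probes of 61 genes among 8448 probes (4209 genes with such a probe), and each gene was represented by its probe with the highest mean over all arrays. The 61 genes comprised 6 Srsf, 13 Hnrnp, 4 Sf3, 6 Snrp, 2 Prpf, 14 Rbm, 6 Lsm and 10 Ddx genes, and 0 U2af genes were measured.

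The study asked how age, sex and energy intake relate to cortical gene expression in C57BL/6 mice, and 67 one-colour filter arrays were used, each from 1 mouse. The caloric restriction (CR) groups, whose food was cut in steps from young adulthood onward, held 4 males and 5 females aged 6 months, 5 males and 5 females aged 16 months, and 3 males and 5 females aged 24 months. The groups fed ad libitum (AL) held 2 males and 3 females of 17-21 days, 3 males and 2 females of 33-44 days, and 5 males with 5 females for each of the ages 6, 16 and 24 months. The 6 months groups were 169 to 194 days old, the 16 months groups 472 to 499 days and the 24 months groups 673 to 743 days. All 3 CR males of 24 months were 673 days old and the AL males 714 to 743 days. Comparisons of diet at 24 months therefore also hold this age gap. Values are z-scores, in which 0 is the mean log intensity of an array and 1 is its SD, so that differences are in z units and cannot be turned into fold changes.

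Most mammalian genes carry introns that the spliceosome removes. Most Snrp and several Lsm proteins form rings on its small nuclear RNAs. The Sf3 proteins recognise the branch site, and the Prpf proteins act as the complex is remodelled. SR proteins (Srsf) mostly promote the use of exons, the heterogeneous nuclear ribonucleoproteins (Hnrnp) coat new transcripts and often oppose exon use, and several Rbm proteins tune the choice between exons. The naming rule also admits DEAD-box helicases whose known work lies elsewhere, such as Ddx18, Ddx27, Ddx47, Ddx52 and Ddx54 in the nucleolus, where ribosomes are built, and Ddx4, a germ cell helicase. The mean z-score was above 0 for 35 of the 61 members.

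Features of the arrays touched many members. Arrays numbered 46 to 67 (22 arrays) stood apart from arrays 1 to 45 (45 arrays), a split found in the values, not the labels. Between these series 45 of the 61 members differed in limma after adjustment, where 77.9% of all probes did. Of these members 26 were higher and 19 lower in the later arrays. The cut was placed on these same values, so tests between the series describe the split and give no independent support for it. The later arrays made up 0 of 5 arrays at 17-21 days, 2 of 5 at 33-44 days and 2 to 4 of the 8 to 10 arrays in each adult age and diet. The arrays of 16 months AL male replicate 2 and female replicate 2 were nearly identical (correlation 0.99975, against 0.989 for the next closest pair), so their mean was used as 1 sample wherever males and females are pooled in a mean, SD or n. Probes that lie close together on the filter deviated together, with a correlation of 0.37 for adjacent probes, 0.44 for probes 22 apart, 0.44 for probes 528 apart and 0.07 for probes 100 apart. Markers of other cells were thinly measured: 1 of 10 listed neuronal genes (Nefl, mean z above 0), 3 of 8 astrocyte, 1 of 8 oligodendrocyte, 4 of 10 microglial, 4 of 5 red cell, 5 of 6 meningeal, 1 of 5 striatal, 0 of 6 endothelial and 0 of 5 choroid plexus genes.

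The widest differences between the series fell on Rbm5 and Lsm3. Rbm5, an RNA-binding protein that regulates exon choice in apoptosis genes, averaged -1.60 in arrays 46 to 67 and -0.21 in arrays 1 to 45 (adjusted p = 7.75e-34). Lsm3, a subunit of the ring that caps U6 RNA, averaged 0.36 in the later arrays and 1.48 in the earlier ones (adjusted p = 1.56e-27). Rbm7, an adaptor of the nuclear exosome, differed by -1.09 and Sf3b5, a small subunit of SF3B, by -0.98. No group mean of these 4 members can be read without the mix of series behind it.

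**Figure D1:**
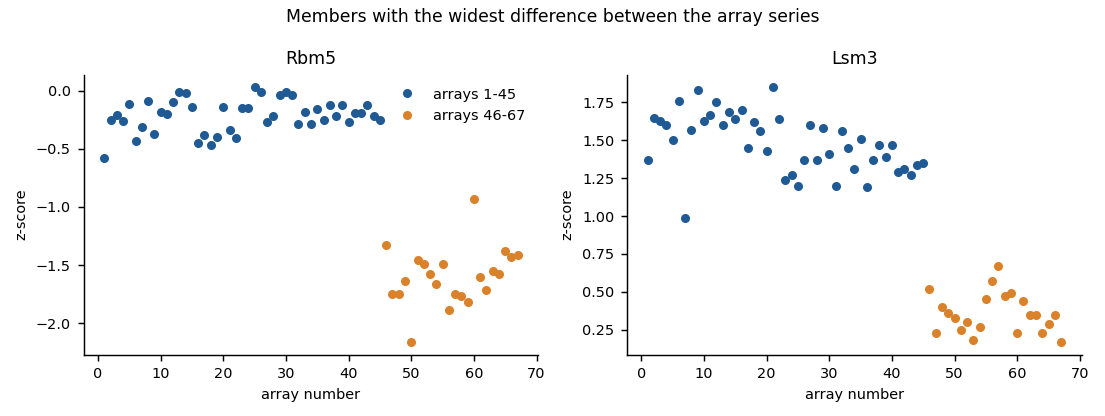
z-score (vertical axis) of Rbm5 (left) and Lsm3 (right) against array number (horizontal axis), 1 point per array, blue for arrays 1 to 45 and orange for arrays 46 to 67. Rbm5 averaged -1.60 in the later and -0.21 in the earlier arrays, and Lsm3 0.36 and 1.48.

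Within arrays 1 to 45 the group means of these genes lay close together. Rbm5 there averaged -0.08 ± 0.09 in 24 months CR (SD, n = 5) and -0.28 ± 0.26 in 33-44 days AL mice (SD, n = 3), the highest and lowest of its 8 means. Lsm3 averaged 1.53 ± 0.16 at 17-21 days (SD, n = 5) and 1.43 ± 0.19 at 33-44 days (SD, n = 3), its highest and lowest there. Over all arrays, the range between the highest and lowest of the 8 age-by-diet means was 0.07 to 0.71 (median 0.22), while the median SD within a group was 0.18. In 1 member, Lsm8, the range of 0.25 exceeded 2 times the median within-group SD of 0.11.

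Levels by group are given next for the members chosen by rule, with no comparison between genes. The means pool both array series in unequal shares, so the ranges cannot be read as age or diet differences alone. Among the SR proteins, Srsf2 had the narrowest range (-0.14 in 16 months AL to -0.03 in 33-44 days AL), Srsf5 ran from 0.56 in 33-44 days AL to 0.75 in 17-21 days AL, and Srsf10 had the widest range (0.47 in 16 months AL to 0.90 in 24 months AL). Among the Hnrnp genes, Hnrnpk, a poly(C)-binding protein, had the narrowest range (0.87 in 24 months AL to 0.98 in 6 months AL) and Hnrnpr the widest (-0.34 in 24 months AL to 0.17 in 33-44 days AL). The Hnrnpr mean at 33-44 days rested on 1 of 5 arrays, at 1.71, against a group median of -0.03. Of the abundant pre-mRNA binders, Hnrnpa1 lay at 0.42 to 0.59, Hnrnpa2b1 at -0.41 to -0.23, Hnrnpc at 0.36 to 0.61 and Hnrnpu at -0.08 to 0.05.

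Among the spliceosomal subunits, Sf3b1, the branch-site subunit, lay at -1.76 in 33-44 days AL to -1.48 in 24 months CR, Sf3b2 had the narrowest range of its family (1.30 to 1.44) and Sf3b5 the widest (0.30 to 0.78). Of the Sm ring and its partners, Snrpd1 had the narrowest range (-0.13 to 0.02), Snrpg the widest (-1.21 to -0.88), Snrpb lay at 0.40 to 0.63 and Snrpa, the U1 A protein, at -1.63 to -1.35. Prpf31, which bridges the U4/U6 and U5 particles, lay at 1.63 to 1.89 and Prpf18, a factor of the second splicing step, at 0.76 to 0.97. Rbm19, a nucleolar protein, had the narrowest range of all members (1.29 to 1.36), Rbm5 the widest (-0.90 to -0.19), and Rbm39, a U2AF-like factor, lay at 0.80 to 0.95. In the last 2 families, Lsm5 (-1.40 to -1.19) and Ddx27 (0.40 to 0.55) had the narrowest ranges, and Lsm3 (0.97 to 1.53) and Ddx24 (-0.53 to -0.15) the widest.

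Promoters of the SR protein genes Srsf1, Srsf6 and Srsf10 are shown because these 3 members were higher at 24 than at 16 months together, as given further on. The letters are RefSeq sequence of build GRCm38.p6, 5′ to 3′ on the strand of the gene, for the 250 bases before each start. Capitals mark matches to any of 4 motifs, each searched on both strands, where overlapping matches share their capitals. The GC box, bound by Sp factors, was searched as GGGCGG. The motif named for the CCAAT letters is bound by NF-Y. The TATA box, which positions the polymerase at a minority of promoters, was searched as TATAAA. The core bound by ETS family factors was searched as CCGGAA.
Srsf1, chr11:88047123-88047372, plus strand: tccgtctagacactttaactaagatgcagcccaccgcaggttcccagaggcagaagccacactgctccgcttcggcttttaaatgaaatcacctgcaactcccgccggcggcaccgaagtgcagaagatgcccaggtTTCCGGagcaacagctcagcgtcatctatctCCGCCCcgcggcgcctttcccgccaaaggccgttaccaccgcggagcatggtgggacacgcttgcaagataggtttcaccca
Srsf6, chr2:162931258-162931507, plus strand: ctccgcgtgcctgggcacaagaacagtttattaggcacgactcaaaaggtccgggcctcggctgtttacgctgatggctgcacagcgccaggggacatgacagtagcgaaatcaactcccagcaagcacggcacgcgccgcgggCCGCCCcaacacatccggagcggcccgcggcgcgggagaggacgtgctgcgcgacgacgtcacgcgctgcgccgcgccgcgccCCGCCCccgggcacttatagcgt
Srsf10, chr4:135855821-135856070, plus strand: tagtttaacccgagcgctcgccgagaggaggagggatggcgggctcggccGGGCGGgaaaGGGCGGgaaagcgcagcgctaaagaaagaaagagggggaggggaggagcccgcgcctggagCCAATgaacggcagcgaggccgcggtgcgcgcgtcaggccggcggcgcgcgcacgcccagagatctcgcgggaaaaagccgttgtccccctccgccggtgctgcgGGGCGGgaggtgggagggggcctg

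Srsf10 held 3 GC boxes and 1 CCAAT box, Srsf6 held 2 GC boxes, and Srsf1 held 1 GC box and 1 ETS core. None of these windows held TATAAA. Windows were found for 55 of the 61 members (68 windows, since some genes have several starts). A GC box stood in 60.3% of the members' windows and 32.7% of all 32851 windows, a CCAAT box in 55.9% and 33.8%, an ETS core in 35.3% and 12.0%, and TATAAA in 7.4% and 12.4%. The median GC content was 59.6% in the members' windows and 52.4% in all windows. The set of all windows covered 27025 genes and was not limited to genes on the filter. These shares, counted per window, therefore do not compare the members with the other measured genes. A match is a description of these letters and was not tied to any level.

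The 14 comparisons of the design gave 0 members with an adjusted p under 0.05 in the fit of group means. The background was as sparse: 0.0947% of all probes passed between 33-44 and 17-21 days, and 0% in each of the other 13 comparisons. Counts at an unadjusted p under 0.05 are therefore given for each comparison beside the share of all probes that reached it, and differences of the named members are given with their 95% intervals. Across members the median interval reached 0.17 to either side for an interval between adult AL ages, 0.10 for CR against AL over 3 ages and 0.25 between the youngest groups. Differences below these sizes could not be resolved for a typical member. The selection rule of the study's methods, which adjusts no p-value, took 2 members at 24 against 16 months AL (Srsf10 and Srsf6), where 2.04% of all probes met it, and 2 at 24 against 16 months CR (Snrpb and Srsf6), where 1.31% did. It took 2 members at 24 against 6 months AL (Lsm8 and Prpf18), where 1.5% of all probes met it, and 3 between males and females (Rbm12b1, Rbm17 and Rbm42), where 0.651% did.

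**Figure D2:**
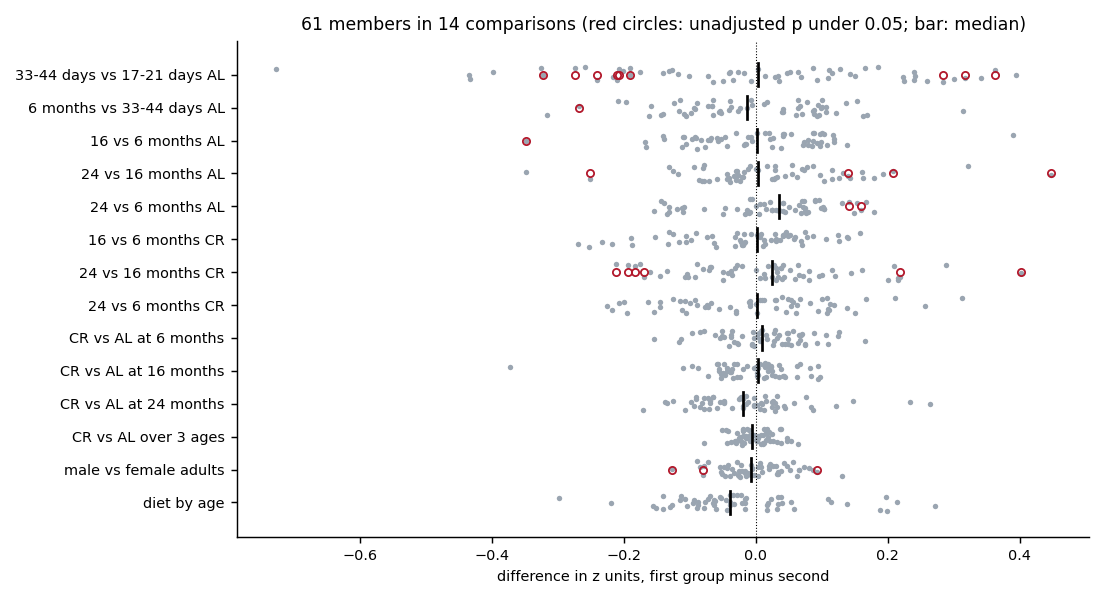
Difference of each of the 61 members (grey points, horizontal axis in z units, first named group minus second) in the 14 comparisons (vertical axis), with the median as a bar and members of unadjusted p under 0.05 as red circles. Medians lie between -0.04 and 0.04, and 0 members passed after adjustment in any row.

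Between 33-44 and 17-21 days, the interval from weaning to adolescence, 9 members (14.75%) reached an unadjusted p under 0.05, 3 higher and 6 lower at 33-44 days, where 14% of all probes did. The higher ones were Snrpa, Ddx52 and Lsm10, and the lower ones Rbm10, Rbm42, Srsf5, Snrpd2, Ddx42 and Hnrnpul1. The later array series held 2 of 5 arrays at 33-44 days and 0 of 5 at 17-21 days. Among the earlier arrays, 33-44 days (n = 3) and 17-21 days (n = 5) averaged 0.56 and 0.57 for Rbm10. They averaged 0.81 and 0.83 for Rbm42, 0.71 and 0.75 for Srsf5, and 0.30 and 0.41 for Snrpd2. Ddx42 averaged -0.57 and -0.53 there, and Hnrnpul1 -0.32 and -0.32. The higher members averaged -1.45 and -1.63 (Snrpa), -0.94 and -1.17 (Ddx52), and -0.79 and -0.87 (Lsm10). Snrpa read -1.42, -1.34, -1.11, -1.58 and -1.28 at 33-44 days, against -1.53, -1.90, -1.83, -1.29 and -1.60 at 17-21 days. The 2 groups overlapped, and all 5 arrays at 33-44 days lay above the mean of the younger mice. The difference was 0.28 (95% interval 0.08 to 0.48, adjusted p = 0.208).

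Ddx52, a nucleolar helicase, read -0.66, -1.11, -0.79, -1.05 and -0.71 at 33-44 days, against -1.27, -1.26, -1.22, -1.07 and -1.02 at 17-21 days. It differed by 0.32 (0.07 to 0.56, adjusted p = 0.26), with overlap between the groups. Rbm10, which promotes exon skipping, read 0.64, 0.59, 0.04, 0.44 and -0.02 at 33-44 days, against 0.77, 0.58, 0.68, 0.17 and 0.67 at 17-21 days. Its 2 lowest arrays at 33-44 days, 0.04 and -0.02, were the 2 of the later series, and the difference was -0.27 (-0.50 to -0.05, adjusted p = 0.296). With the array cycle and series as blocks the differences were 0.22 for Snrpa, 0.24 for Ddx52 and -0.19 for Rbm10. In that fit 5 members in all reached an unadjusted p under 0.05, where 9.65% of all probes did. Snrpa and Ddx52 were among these members, and Rbm10 was not. Markers of other cells also differed over this interval. The 4 measured red cell genes were all lower at 33-44 days (-0.42 to -0.19), and 1 of them, Hbb-y, passed the threshold. The other lists ran from -0.30 to 0.18 for 3 astrocyte genes, -0.19 to 0.17 for 4 microglial genes and -0.22 to 0.43 for 5 meningeal genes, with -0.35 for the oligodendrocyte gene Gpr37. The part of these cells in the members' differences was not tested.

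Between 6 months and 33-44 days, 1 member reached an unadjusted p under 0.05, where 5.31% of all probes did. It was Ddx52, at -1.37 to -0.94 (median -1.13) in 6 months AL mice and -1.11 to -0.66 (median -0.79) at 33-44 days, a difference of -0.27 (-0.48 to -0.06, adjusted p = 0.82). All 10 arrays at 6 months lay below the mean at 33-44 days, so that the 6 months level stood near that of 17-21 days. Snrpa differed by -0.14 (-0.31 to 0.03) and Ddx18 by -0.16 (-0.35 to 0.03), both with adjusted p = 0.987.

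Between 16 and 6 months in AL mice, 1 member reached an unadjusted p under 0.05, where 3.04% of all probes did. It was Srsf10, an SR protein that represses splicing when it loses its phosphates. Srsf10 lay at -0.40 to 0.82 (median 0.62) at 16 months and at 0.22 to 1.34 (median 0.80) at 6 months. The difference was -0.35 (-0.64 to -0.05, adjusted p = 0.999), and 8 of 9 samples at 16 months lay below the 6 months mean. Hnrnpul2 differed by 0.14 and Ddx47, a nucleolar helicase, by 0.12, both with adjusted p = 0.999.

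Between 24 and 16 months in AL mice, 4 members (6.56%) reached an unadjusted p under 0.05, 3 higher and 1 lower at 24 months, where 6.57% of all probes did. Srsf10 read 0.72, 0.76, 0.96, 1.00 and 1.17 in males and 0.73, 0.45, 1.02, 1.03 and 1.20 in females at 24 months. At 16 months it read 0.04, 0.32, 0.82, 0.78 and 0.78 in males and -0.40, 0.33, 0.62, 0.75 and 0.53 in females. The groups overlapped, with 6 of 10 arrays at 24 months above the highest array at 16 months. Means were 0.90 ± 0.23 at 24 months (SD, n = 10) and 0.47 ± 0.42 at 16 months (SD, n = 9), and the fitted difference was 0.45 (0.15 to 0.74, adjusted p = 0.61).

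Srsf6, an SR protein that acts on exon choice in neurons among other cells, lay at 1.22 to 1.43 (median 1.34) at 24 months and 0.99 to 1.34 (median 1.13) at 16 months in AL mice. All 10 arrays at 24 months lay above the 16 months mean, and the difference was 0.21 (0.04 to 0.37, adjusted p = 0.647). Lsm8, which replaces Lsm1 in the nuclear form of the Lsm ring, lay at 1.03 to 1.33 (median 1.17) and 0.86 to 1.22 (median 1.07), a difference of 0.14 (0.01 to 0.27, adjusted p = 0.743). Rbm25, a regulator of alternative splicing, lay at 0.35 to 1.02 (median 0.79) at 24 months and 0.70 to 1.48 (median 0.91) at 16 months, a difference of -0.25 (-0.42 to -0.08, adjusted p = 0.612), and of -0.14 without the near-identical arrays. Ddx47 differed by -0.13 (-0.27 to 0.01, adjusted p = 0.789).

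The arrays were sorted here into 5 cycles by the order of their numbers, since the labels name no cycle. Each cycle held at most 1 array of a group. Groups of the 2 youngest ages and of CR males at 6 and 24 months were missing from some. A fit with these cycles and the 2 array series as blocks narrowed the intervals. In it 2 members passed after adjustment at 24 against 16 months AL, where 92 probes (1.09%) did, and 14 members reached an unadjusted p under 0.05, where 15.9% of all probes did. Srsf10 rose by 0.45 (adjusted p = 0.00261) and Ddx24, a nucleolar DEAD-box helicase, by 0.32 (adjusted p = 0.0276). Ddx24 lay at -0.61 to 0.32 (median -0.13) at 24 months and -1.28 to 0.21 (median -0.37) at 16 months, and it was itself 0.72 higher in the later array series than in the earlier one. When each of the 20 arrays was left out in turn, Srsf10 passed in 20 of 20 such fits and Ddx24 in 13 of 20, its highest adjusted p being 0.0718 without 24 months AL male replicate 5. Without the near-identical arrays, where 0.154% of all probes passed, Srsf10 differed by 0.41 (adjusted p = 0.0494) and Ddx24 by 0.35 (adjusted p = 0.0643). Neither passed once the deviations of neighbouring probes on the filter, over the same and adjacent blocks, were subtracted: Srsf10 then differed by 0.32 and Ddx24 by 0.20 (adjusted p = 0.132 for both), and 0% of all probes passed.

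A second probe of Srsf10 had the same sign and a smaller difference. Its mean z was -1.63 over the arrays, it differed by 0.07 at 24 against 16 months AL (adjusted p = 0.645 with blocks), and it correlated with the chosen probe at 0.34 over the 67 arrays. Of the 10 members with several probes, 4 had the same sign in all probes for this comparison. The others, including Prpf31 (0.07 and -0.12), Hnrnpu (-0.03 and 0.04), Lsm14a (0.07 and -0.12) and Rbm19 (0.03 and -0.05), did not. Hnrnpa1 (-0.09 and -0.10), Rbm25 (-0.25 and -0.03) and Sf3b2 (-0.02 and -0.10) did.

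In CR mice the interval from 16 to 24 months gave 6 members (9.84%) with an unadjusted p under 0.05, 2 higher and 4 lower at 24 months, where 4.15% of all probes did. Srsf6 lay at 1.20 to 1.44 (median 1.32) at 24 months and 0.72 to 1.35 (median 1.17) at 16 months, and all 8 arrays at 24 months lay above the 16 months mean. The difference was 0.22 (0.04 to 0.40, adjusted p = 0.999), beside 0.21 in AL mice, which are other animals. Srsf1, a founding SR protein that sets splice-site choice, lay at -0.94 to 0.66 (median -0.42) and -1.21 to -0.28 (median -0.70), a difference of 0.40 (0.09 to 0.71, adjusted p = 0.999). One array, 24 months CR male replicate 2 at 0.66, lay far above the next at -0.14, and without it the difference was 0.19.

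The lower members were Ddx20, Ddx18, Ddx47 and Rbm43. The probes of these Ddx genes lie in rows 16 to 18 and columns 1 to 5 of blocks 1 and 3 in the inferred filter layout. Probes close together on the filter deviated together, so these falls cannot be counted as separate observations. Ddx20, the helicase of the SMN complex that loads Sm rings, lay at -1.39 to -0.89 (median -1.17) at 24 months CR and -1.31 to -0.75 (median -0.98) at 16 months CR, a difference of -0.19 (-0.34 to -0.05, adjusted p = 0.999). Between 16 and 6 months CR, 0 members reached an unadjusted p under 0.05, where 2.33% of all probes did, and the members with the smallest p were Ddx20 (0.14), Ddx47 (0.14) and Prpf18 (0.16).

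Over the whole adult span, 24 against 6 months, 2 members of AL mice reached an unadjusted p under 0.05, where 2.89% of all probes did. Lsm8 lay at 1.03 to 1.33 (median 1.17) at 24 months and 0.63 to 1.37 (median 1.03) at 6 months, a difference of 0.14 (0.01 to 0.27). Hnrnpdl, a relative of Hnrnpd, lay at 0.08 to 0.46 (median 0.25) and -0.34 to 0.43 (median 0.20), a difference of 0.16 (0.00 to 0.32), and Prpf18 differed by -0.14 (-0.31 to 0.02). Each adjusted p was 1. The median difference over the 61 members was 0.04, against 0.00 over all probes. At 24 months 41 members (67.2%) were higher, where 49.8% of all probes were. In CR mice 0 members reached an unadjusted p under 0.05, where 3.42% of all probes did, and Srsf1 (0.31), Rbm42 (0.14) and Hnrnph1 (-0.15) had the smallest p. Without 24 months CR male replicate 2 the Srsf1 difference was 0.10.

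A comparison of 24 with 16 months over both diets, added after the values above were seen, averaged the AL and CR differences with equal weight. In the fit of group means 0 members and 0% of probes passed after adjustment, and 13 members reached an unadjusted p under 0.05, where 10.1% of all probes did. With cycle and series as blocks, 6 members (9.84%) passed: Srsf10, Srsf1, Srsf6, Snrpe and Ddx24 rose and Ddx20 fell, where 488 probes (5.78%) passed. The difference was 0.35 (0.23 to 0.47, adjusted p = 0.000433) for Srsf10 and 0.25 (0.13 to 0.38, adjusted p = 0.0137) for Srsf1. It was 0.21 (0.12 to 0.31, adjusted p = 0.00508) for Srsf6, and all 6 Srsf members had a difference above 0 (0.00 to 0.35, median 0.13). In the fit of group means, 4 of the 6 were higher in AL mice alone and 6 of 6 in CR mice alone.

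Snrpe, a protein of the Sm ring, rose by 0.17 (0.08 to 0.27, adjusted p = 0.0279) over both diets. It lay at 1.53 to 2.24 in 24 months CR and 1.06 to 2.02 in 16 months CR, and at 1.58 to 2.18 in 24 months AL and 1.29 to 2.00 in 16 months AL. Ddx24 rose by 0.24 (0.12 to 0.36, adjusted p = 0.0105), and Ddx20 fell by 0.14 (adjusted p = 0.045). Over all members the median was 0.02 and 59% were higher at 24 months, against -0.01 and 46.9% over all probes. By family, 5 of 6 Snrp, 3 of 4 Sf3 and 9 of 14 Rbm members were higher, and 8 of 13 Hnrnp and 6 of 10 Ddx members were lower.

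**Figure D3:**
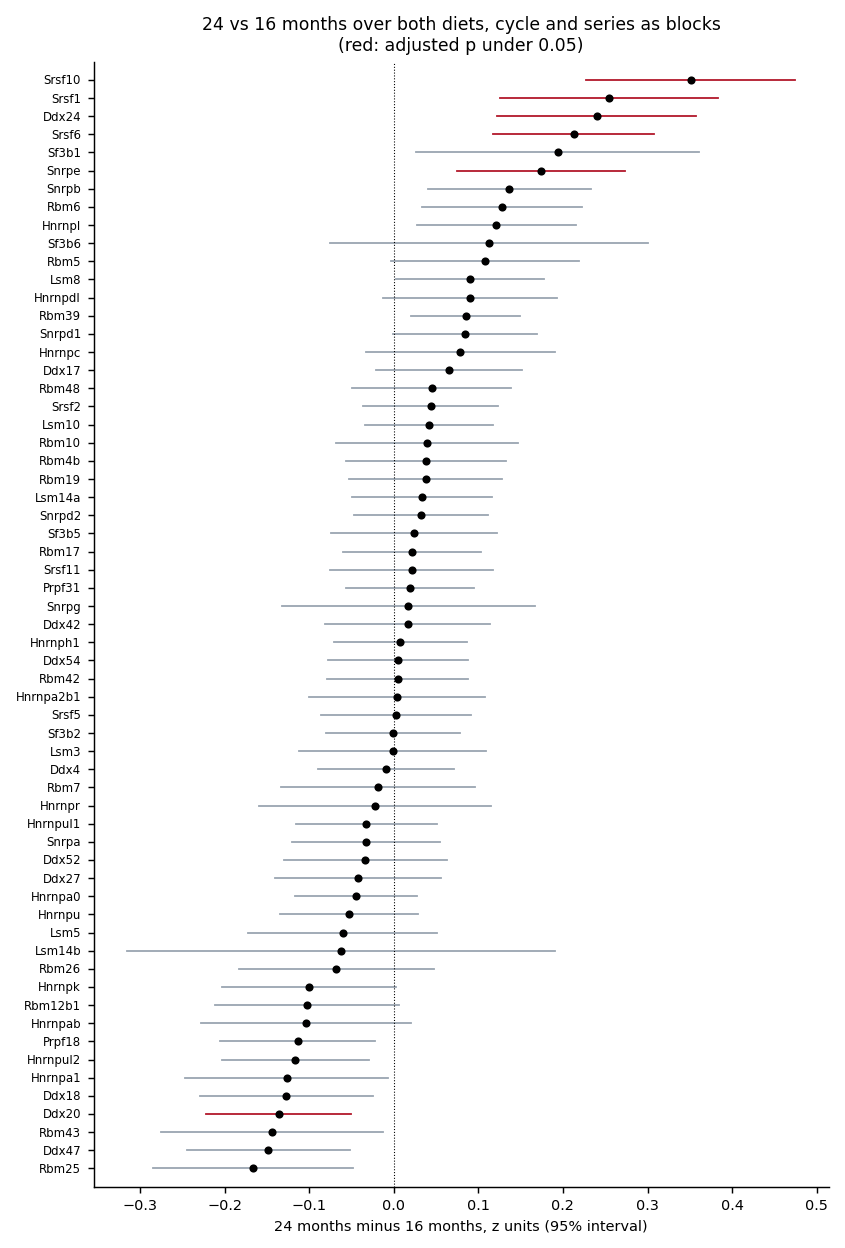
Difference of each member between 24 and 16 months over both diets (points, horizontal axis in z units, cycle and series as blocks) with its 95% interval, members in order of their difference (vertical axis), in red where the adjusted p was under 0.05. Srsf10 stands at the top at 0.35 and 6 of 61 members are red.

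**Figure D4:**
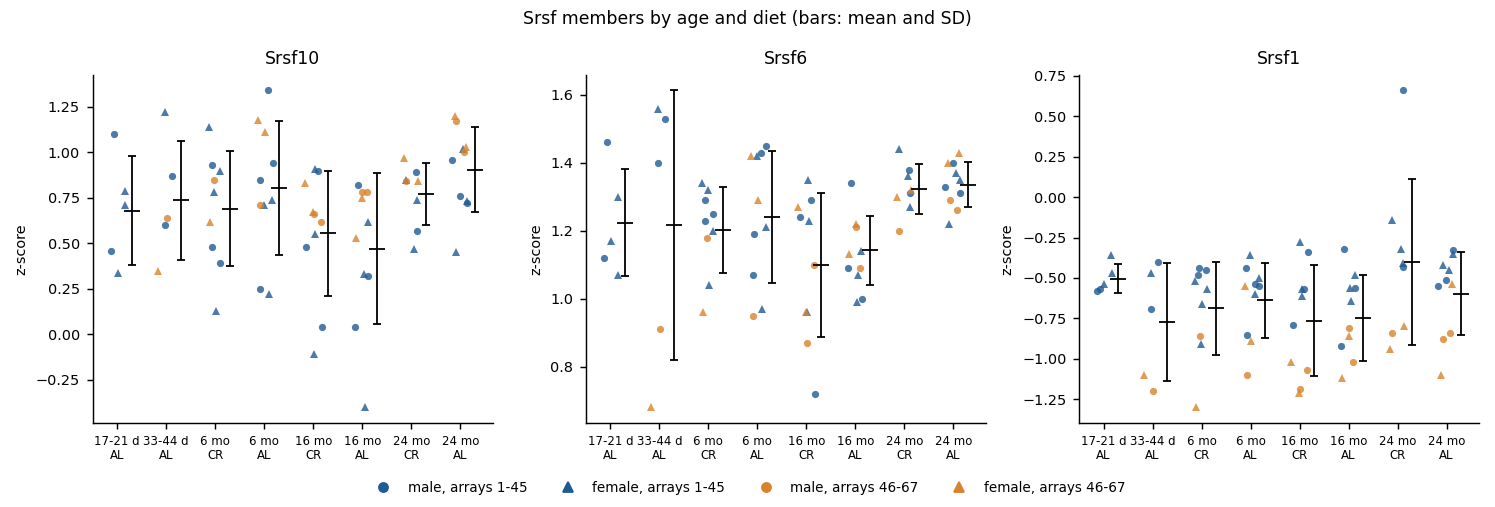
z-score (vertical axis) of Srsf10, Srsf6 and Srsf1 by age and diet (horizontal axis), circles for males and triangles for females, blue for arrays 1 to 45 and orange for arrays 46 to 67, with the group mean and SD in black (the near-identical pair at 16 months AL is drawn as 2 points and counted once). Srsf6 spans 1.20 to 1.44 in 24 months CR and 1.22 to 1.43 in 24 months AL, against 0.72 to 1.35 in 16 months CR and 0.99 to 1.34 in 16 months AL, while Srsf10 is widest at 16 months AL.

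The differences of these 6 members had the same sign in males alone and in females alone, and within each array series. The members were picked on these same arrays, so the shared sign is no independent evidence. For Srsf10 the differences were 0.34 in males, 0.36 in females, 0.28 within arrays 46 to 67 and 0.37 within arrays 1 to 45. Over 38 fits that each left out 1 array, Srsf10, Srsf6 and Ddx24 passed in 38, Srsf1 in 37, Snrpe in 33 and Ddx20 in 16. The exception of Srsf1 was 24 months CR male replicate 2, without which its difference was 0.16 (adjusted p = 0.0712). Without the near-identical arrays 5 members passed, where 4.25% of all probes did. They were Srsf10, Srsf1, Srsf6, Ddx24 and Prpf18 (-0.15, adjusted p = 0.0423), while Snrpe (adjusted p = 0.0641) and Ddx20 (adjusted p = 0.107) did not pass.

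The count moved with filter position. When the mean deviation of neighbouring probes in the same and the 2 adjacent blocks on each side was subtracted from each value, 0 members passed, where 6 probes (0.071%) did. Srsf10 then differed by 0.23 (adjusted p = 0.0806), Srsf1 by 0.17 (adjusted p = 0.0803), Srsf6 by 0.08, Ddx24 by 0.09, Snrpe by 0.07 and Ddx20 by -0.01. Ddx18 and Ddx47, also lower in CR mice, differed by 0.00 and -0.03, against -0.13 and -0.15 as deposited. The sign was kept in 49 of 61 members, and the median size fell to 0.04, against 0.06 as deposited. Srsf5 (-0.03) and Srsf11 (-0.02) were then below 0, so the Srsf members no longer shared a direction. The probes of Srsf6, Ddx24 and Snrpe all lie in the first row of their blocks in the inferred layout. What part filter position played in these differences was not tested beyond this.

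**Figure D5:**
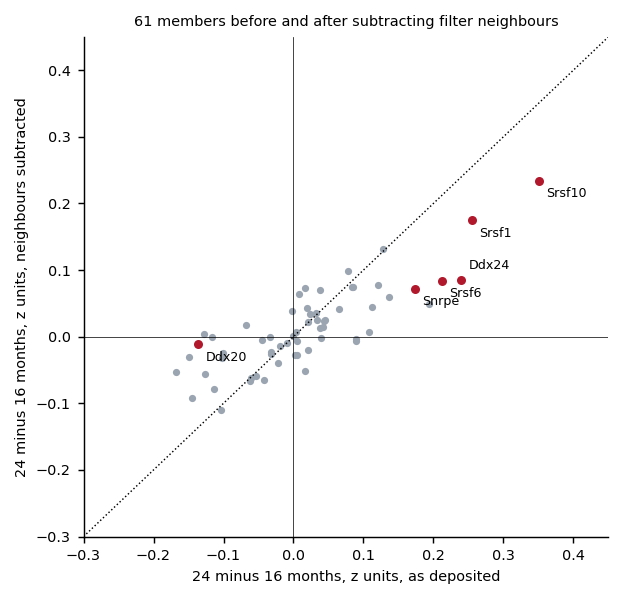
Difference of each member between 24 and 16 months over both diets (z units, cycle and series as blocks) after neighbouring probes were subtracted (vertical axis) against the difference as deposited (horizontal axis), with the 6 members that passed as deposited in red and equality as a dotted line. Srsf10 lies at 0.23 after and 0.35 before, and Ddx20 at -0.01 and -0.14.

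The interval from 16 to 24 months was also compared between the diets. The CR difference less the AL difference reached an unadjusted p under 0.05 in 0 members, where 0.888% of all probes did. With blocks 1 member reached it, where 3.59% of all probes did: Lsm14b at 0.57, and at 0.20 without the near-identical arrays. After adjustment 0 members passed with or without blocks. For Srsf10 the difference in the blocked fit was 0.25 in CR mice and 0.45 in AL mice, and for Srsf1 it was 0.38 and 0.13.

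The diet comparison asked which members differ when food is restricted. Against AL mice, 0 members of CR mice reached an unadjusted p under 0.05 at 6 months, where 0.462% of all probes did, 0 at 16 months (1.03%), 0 at 24 months (1.04%) and 0 over the 3 ages together (0.71%). The members with the smallest p over the 3 ages were Rbm12b1, Lsm8, Snrpd2, Rbm43 and Srsf11. Rbm12b1 lay at 0.22 to 1.13 (median 0.81) in CR mice and 0.41 to 1.11 (median 0.85) in AL mice, a difference of -0.08 (-0.18 to 0.02). The other differences were -0.04 (-0.12 to 0.04) for Lsm8, 0.03 (-0.04 to 0.11) for Snrpd2, 0.05 (-0.06 to 0.16) for Rbm43 and -0.05 (-0.15 to 0.06) for Srsf11, all with adjusted p = 1.00. Over all 61 members these differences ran from -0.08 to 0.06.

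At single ages, 0 members passed either. At 6 months Rbm26, a cofactor of nuclear RNA decay, differed by -0.15 (-0.37 to 0.06), Prpf18 by -0.11 and Rbm42 by -0.08. At 16 months Lsm14b, a translational repressor of stored mRNAs, lay at -0.69 to 0.54 (median 0.19) in CR mice and -0.62 to 2.40 (median 0.09) in AL mice. Its difference of -0.37 (-0.90 to 0.16) rested on the near-identical arrays, and without them it was 0.12. Rbm10 differed by -0.09 and Srsf11 by -0.10 at that age. At 24 months Rbm25 differed by 0.15 (-0.04 to 0.33), Rbm12b1 by -0.14 (-0.31 to 0.04) and Srsf1 by 0.23 (-0.07 to 0.54). The Srsf1 value rested on 24 months CR male replicate 2, without which it was 0.02, and the Rbm12b1 value was -0.04 without 24 months CR male replicate 1.

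The change of the diet difference between 6 and 24 months was tested as an interaction, in which 0 members and 1.07% of all probes reached an unadjusted p under 0.05. Lsm5, another subunit of the U6 ring, had -0.22 (-0.48 to 0.04), Prpf18 0.20 (-0.05 to 0.45) and Rbm25 0.19 (-0.07 to 0.45). The interaction was below 0 in 42 of 61 members, with a median of -0.04 against -0.01 over all probes. It was above 0 in 31.1% of members and 47.4% of all probes. By family it was below 0 in 11 of 13 Hnrnp, 9 of 10 Ddx, 5 of 6 Lsm and 9 of 14 Rbm members. In the other families it was below 0 in 3 of 6 Snrp, 2 of 4 Sf3, 1 of 2 Prpf and 2 of 6 Srsf members. These signs cannot be counted as separate observations, since probes close together on the filter deviated together. The interaction also holds the age gap between the diets in males of 24 months.

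Between male and female adults 0 members passed after adjustment. At an unadjusted p under 0.05 there were 3 members (4.92%), all of the Rbm family, where 0.971% of all probes reached it. Rbm12b1 lay at 0.22 to 1.11 (median 0.79) in males and 0.42 to 1.13 (median 0.89) in females, a difference of -0.13 (-0.23 to -0.03). Rbm17, which binds the 3′ splice site, lay at 0.28 to 0.90 (median 0.67) in males and 0.39 to 0.76 (median 0.58) in females, a difference of 0.09 (0.02 to 0.17). Rbm42 lay at 0.50 to 0.89 (median 0.74) and 0.50 to 0.98 (median 0.83), a difference of -0.08 (-0.16 to 0.00). Males and females overlapped in each of these, and each adjusted p was 1.

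Other genes of splicing were taken from a list of 140, of which 55 were measured. None of them passed in the fit of group means in any of the 14 comparisons, and at an unadjusted p under 0.05 there were 5 of 55 at 24 against 16 months AL, where 6.57% of all probes reached it, and 3 of 55 in CR, where 4.15% did. With blocks, Luc7l3, a U1-associated protein, passed at 24 against 16 months AL (0.26, adjusted p = 0.0367), where 1.09% of all probes did. Of the markers of other cells, 0 passed over that interval in either diet. In CR mice the 4 microglial genes differed by -0.03 to 0.13 (1 higher and 3 lower), the 5 meningeal genes by 0.02 to 0.12, the 3 astrocyte genes by -0.08 to 0.10 and the 4 red cell genes by -0.07 to 0.11. In AL mice the same lists differed by 0.04 to 0.07, 0.02 to 0.09, -0.04 to 0.12 and -0.06 to 0.13. Nefl differed by -0.19 in CR and -0.07 in AL mice, Gpr37 by -0.03 and -0.05, and the striatal gene Ppp1r1b by -0.11 and -0.13. The part of these cells in the members' differences was not tested. In bulk tissue, fewer cells of a type and less RNA per cell cannot be told apart.

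Correlations between members are given as a description, since all arrays share the filter layout. After group means and the series difference were removed, the median correlation over 67 arrays was -0.02 over the 1830 pairs of members and -0.02 between members and all other probes, and within families it was 0.23 for Srsf and -0.13 to -0.03 for the other families with 4 or more members. The closest pairs were Rbm10 and Srsf11 (0.91), Snrpe and Srsf6 (0.91), and Rbm42 and Srsf5 (0.90). Rbm10 and Srsf11 lie in row 2, columns 8 and 7, of adjacent blocks, and Rbm42 and Srsf5 in row 3, column 9, of adjacent blocks. After neighbouring probes were subtracted the correlations were 0.36, 0.80 and 0.51. For Srsf11 and Srsf5, also in adjacent blocks, the correlation was 0.88 as deposited and -0.17 after that subtraction. The family medians, that of Srsf included, are given without it. Over the 68 pairs of members within 2 rows, 4 columns and 4 blocks of each other the median was 0.48 as deposited and 0.06 after that subtraction, and over the 1762 pairs farther apart it was -0.04 and -0.01.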

How the data were processed

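RNA from the cerebral cortex of single mice was labelled with a radioisotope and hybridised to cDNA filters of the NIA mouse set, of which 8448 probes were analysed here. The deposited values are a score: the authors turned the log intensities of each array into z-scores. The sources used here do not give the base of the logarithm or the background treatment, no intensities were used, and the number of arrays and their spread are the only guides to precision. One probe lacked a value for 1 male of the 16 months AL group and was fitted without that array. Probe names came from the platform annotation (3349 probes had no symbol and 224 had several).

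Tests used limma 3.58.1 in R 4.3.3, with a mean for each of 16 groups (age, diet and sex) over 67 arrays, 14 contrasts with the sexes weighted equally, two-sided moderated statistics and Benjamini-Hochberg adjustment over 8448 probes, with a threshold of 0.05. The near-identical arrays stayed as 2 arrays in these fits. Intervals are 95% intervals of the fit. The method was tested on simulated shifts. The outcome is not given here, so that test cannot be used to judge the blocked fits, the array series or filter position. Arrays are labelled as separate mice, so p-values measure the spread between mice and their arrays together. Group means given beside a fitted difference pool the sexes, so their difference can depart slightly from it.

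The members and lists were chosen with earlier results of these data known. Named members were those past the threshold or, where fewer than 3 passed, the 3 with the smallest p (5 for 24 against 16 months AL and for CR against AL over 3 ages), and for levels the widest and narrowest range in each family with a fixed set of well-known genes. Members passing in blocked or added fits were named after their values were seen. The filter layout of 16 blocks of 24 rows and 22 columns was inferred from the values, and neighbours lay within 2 rows and 2 columns. Alternatives were blocks for array series and cycle, quantile normalization, median centring, only the compared groups, only probes whose mean z exceeded 0, the mean of all probes of a gene, each sex alone, filter position, the selection of the study's methods (an unadjusted p under 0.05, a z-ratio of 1.5 or more in size, and a mean z above 0, without the analysis of variance that followed it there) and leaving out arrays. Some were added after seeing the data: each array series alone, neighbours over adjacent blocks, blocks without the near-identical arrays, the comparison over both diets and the leave-one-out runs of the blocked fits.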

Additional observations from a re-analysis of the deposited data

Results flagged for a closer look

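Among 58 pairs of a named member and an age and diet group, 2 had an array far from the rest of its group, and chance alone gives about 1 in 20 such groups. Ddx47 read -0.49 in 16 months AL male replicate 5, against -0.15 for the nearest sample, a gap of 0.55 of the whole range (n = 9). Lsm14b read 2.40 in the mean of the 2 near-identical arrays at 16 months AL, against 0.38 for the nearest sample, a gap of 0.67 of the range (n = 9). No named member moved in opposite directions in every sample of 2 groups.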

How the results depend on the processing

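The count of members past the threshold was 0 in each of the 14 comparisons. At 24 against 16 months AL it was 2 with array cycle and series as blocks (Srsf10 and Ddx24), 1 with those blocks and without the near-identical arrays (Srsf10, adjusted p = 0.0494), 0 with those blocks and filter position corrected (either way), and 2 by the selection of the study's methods. That selection, which uses unadjusted p-values, also gave 2 for 24 against 6 months AL, 2 for 24 against 16 months CR and 3 for males against females, beside the shares of all probes given above. Leaving out 1 array moved the count only at 33-44 against 17-21 days, without 33-44 days AL female replicate 1. That fit rested on 1 female array at 33-44 days, so only the effect size is given: Snrpa differed by 0.36. In the other comparisons the count stayed 0.

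Of 46 named differences, 12 of 664 alternative fits reversed the sign and 0 of 1195 fits that left out 1 array did. Leaving out 1 array moved 17 of the 46 by over 1.5 times, all of them differences that did not pass the threshold. In males alone the difference was -0.012 for Ddx47 at 16 against 6 months AL and 0.0312 for Lsm8 under CR over 3 ages. In females alone it was -0.056 for Ddx20 and -0.012 for Ddx47 at 16 against 6 months CR, and 0.014 for Ddx20 at 24 against 16 months CR. Without the near-identical arrays Lsm14b under CR at 16 months was 0.117, and 0.0226 with blocks as well. Within arrays 46 to 67 it was -0.0725 for Ddx20 at 16 against 6 months CR, -0.015 for Srsf1 under CR at 24 months, and -0.03 for Snrpd2 and 0.0025 for Srsf11 under CR over 3 ages, and within arrays 1 to 45 it was -0.0121 for Rbm43. The cause was not tested for any of these. Srsf10 at 24 against 16 months AL ran from 0.26 with both its probes averaged to 0.52 in females alone. No paired analysis was possible because replicate numbers do not tie mice of different groups together, and the array cycles order arrays rather than animals.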
